A study of Mus musculus with 13 samples.

Results

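C1qa, C1qb, C1qc, Vcam1, Hmox1, Stab2 and Sparc are genes of complement, of marrow macrophages and sinusoids, and of the extracellular matrix. They were measured in flow-sorted mouse bone marrow progenitors, where they were chosen by their values: they were selected on being higher on the arrays of wild-type SLAM cells. They are 7 of 15121 genes with at least 3 probe sets on the Affymetrix Mouse Exon 1.0 ST array, and 123 of 208397 probe sets listed with a single gene. The probe sets numbered 3 for C1qa, 5 for C1qb, 5 for C1qc, 17 for Vcam1, 9 for Hmox1, 72 for Stab2 and 12 for Sparc. The level of a gene on an array is the median log2 intensity of its probe sets, so 1 unit is a 2-fold change. A probe set's brightness depends on its sequence, so levels were compared between arrays and never between genes.

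Complement component C1q is a secreted pattern recognition protein built from the A, B and C chains that C1qa, C1qb and C1qc encode, and tissue macrophages are a major source of it. Vcam1 is the adhesion receptor for integrin alpha4 beta1 and marks marrow macrophages, endothelium and stroma. Hmox1 encodes haem oxygenase 1, which breaks down haem and is abundant in macrophages that clear red cells. Stab2 is an endocytic scavenger receptor of sinusoidal endothelium, and Sparc is a matricellular protein made by osteoblasts, stroma and endothelium. None of these genes is a textbook marker of haematopoietic stem cells themselves, although Vcam1 has been described on some of them.

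The tested mice carried PML-RARA, the fusion gene of acute promyelocytic leukaemia, expressed from the murine Ctsg locus (mCG-PR, labelled N17), and the control mice were wild-type littermates (WT). All were labelled Bl/6 Taconic, and each array held RNA from 1 mouse. Ctsg encodes cathepsin G, a granule protease whose locus is most active in promyelocytes. SLAM cells were profiled from 2 mCG-PR mice aged 7 weeks and 2 WT mice aged 6 weeks. KLS cells were profiled from 3 mCG-PR mice aged 6 weeks, from 2 mCG-PR mice aged 13 weeks, and from 4 WT mice, of which replicates 1 and 2 were 13 weeks old and replicates 3 and 4 were 12 weeks old. KLS and SLAM are the labels' names for sorted stem and progenitor populations; the sources used here do not describe the gates. The mCG-PR SLAM mice were older than the WT SLAM mice, and the young mCG-PR KLS mice were younger than the WT KLS mice, so age and genotype cannot be told apart in these contrasts.

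The array median intensity lay between 98.65 and 115.31. Replicates correlated less within the SLAM groups (r = 0.893 for mCG-PR and 0.895 for WT) than within the KLS groups (0.961 to 0.972), across genes. Cd48, which stem cell gates of the SLAM family leave out, was 4.24 to 5.56 on SLAM arrays and 8.28 to 9.61 on KLS arrays, and Kit was 9.71 to 10.51 on SLAM arrays and 9.56 to 10.32 on KLS arrays. Slamf1, the receptor CD150, was 6.21 and 6.63 on mCG-PR SLAM arrays, 7.68 and 7.47 on WT SLAM arrays and 5.17 to 6.31 on KLS arrays. The mean of the Y-linked genes Eif2s3y and Kdm5d was 4.23 to 4.53 on 3 arrays, both mCG-PR SLAM arrays and mCG-PR KLS of 6 weeks replicate 3, against 7.67 to 8.48 on the other 10. In SLAM cells this level moved with genotype, so sex and genotype cannot be told apart there.

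C1qb, C1qc and C1qa are neighbours in that order on mouse chromosome 4, with 0 other genes between them in the RefSeq table of GRCm38.p6. The promoters of C1qb and C1qc are shown because the median levels of these neighbours were both lower on the mCG-PR SLAM arrays than on the WT SLAM arrays. The windows run from 250 bases before to 50 after the start of each gene, as given by RefSeq in GRCm38.p6, 5′ to 3′ on the minus strand, at chr4:136886151-136886450 for C1qb and chr4:136892865-136893164 for C1qc. Capitals mark GAGGAA or its reverse complement TTCCTC, the core letters bound by PU.1 and other ETS factors of macrophages.
C1qb: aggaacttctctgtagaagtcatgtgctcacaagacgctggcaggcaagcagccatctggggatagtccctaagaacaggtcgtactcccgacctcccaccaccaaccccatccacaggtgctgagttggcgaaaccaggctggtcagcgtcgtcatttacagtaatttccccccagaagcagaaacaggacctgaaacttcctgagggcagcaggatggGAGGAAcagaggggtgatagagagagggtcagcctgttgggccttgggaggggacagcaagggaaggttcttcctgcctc
C1qc: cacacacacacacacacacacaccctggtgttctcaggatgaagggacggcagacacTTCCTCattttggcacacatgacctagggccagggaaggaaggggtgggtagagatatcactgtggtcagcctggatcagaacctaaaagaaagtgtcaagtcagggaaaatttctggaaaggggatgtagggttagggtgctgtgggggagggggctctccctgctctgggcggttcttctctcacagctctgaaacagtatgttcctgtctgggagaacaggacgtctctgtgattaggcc
Each window held 1 match on either strand, and 28.3% of 32851 mouse promoter windows of that length held at least 1. Neither held TGANTCA, the AP-1 letters (7.81% of windows), or TTGCNNAA, the C/EBP letters (10.8% of windows). The promoters of Stab2 and Sparc, which were also in the table, held none of the 3 motifs.

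The question of the SLAM comparison was how the genes selected for their level in WT SLAM cells stood in mCG-PR SLAM cells of the same sorted type. Since this contrast took part in the choice, its values are a description and no test was made. Of the 7 genes, 6 had a lower mean on the mCG-PR SLAM arrays than on the WT SLAM arrays, and C1qa had a higher one. Both mCG-PR SLAM arrays lay below both WT SLAM arrays for 5 genes, C1qb, C1qc, Vcam1, Stab2 and Sparc, where 17.5% of all genes did so. The median difference was -0.58, against -0.0028 over all genes. It was -0.90 without mCG-PR SLAM replicate 1 and -0.37 without mCG-PR SLAM replicate 2. A lower value in a sorted population can come from fewer cells of a type or from less RNA per cell, and these cannot be told apart here.

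Among the C1q chains, C1qa was 7.07 and 6.86 on the mCG-PR SLAM arrays, against 6.84 and 6.83 on the WT SLAM arrays. The mCG-PR arrays were the higher pair by a gap of 0.02, with a mean difference of 0.13, so C1qa goes against the selection in this contrast. C1qb was 7.02 and 6.18 on the mCG-PR SLAM arrays, against 7.58 and 7.28 on the WT SLAM arrays, a difference of -0.83. The 2 mCG-PR arrays lay 0.84 apart, about as far as the groups. C1qc was 7.01 and 6.69 on the mCG-PR SLAM arrays, against 7.34 and 7.41 on the WT SLAM arrays, a difference of -0.52, with no overlap. The median of the differences of single probe sets was smaller, at -0.46 for C1qb and -0.24 for C1qc. Single probe sets ran from -1.47 to 0.19 in C1qb and from -0.69 to 0.67 in C1qc. In each gene 1 of 5 probe sets lay lower without overlap. The 3 genes encode chains of 1 protein, yet their differences did not share a sign.

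Vcam1 differed most. It was 6.32 and 4.51 on the mCG-PR SLAM arrays, against 7.25 and 7.26 on the WT SLAM arrays. The mean difference of -1.84, or 3.57-fold lower, was the 58th most negative of 15121 genes. The mCG-PR arrays lay 1.81 apart. The medians of the WT arrays lay 0.01 apart, although 8 of the 17 Vcam1 probe sets were more than 1 unit higher on WT SLAM replicate 2. The difference was -2.74 without mCG-PR SLAM replicate 1 and -0.93 without replicate 2.

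Sparc was 6.56 and 6.49 on the mCG-PR SLAM arrays, against 8.86 and 7.56 on the WT SLAM arrays. Here the mCG-PR arrays agreed to 0.07, and the WT arrays lay 1.30 apart. The difference was -1.68, or 3.21-fold lower, the 76th most negative, and it was -1.03 without WT SLAM replicate 1.

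Hmox1 was 6.81 and 6.17 on the mCG-PR SLAM arrays, against 6.46 and 7.68 on the WT SLAM arrays, a difference of -0.58. The groups overlapped, only WT SLAM replicate 2 stood above both mCG-PR arrays, and without it the difference was 0.03. Stab2 was 6.24 and 6.05 on the mCG-PR SLAM arrays, against 6.44 and 6.78 on the WT SLAM arrays, a difference of -0.46 with no overlap.

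**Figure D1:**
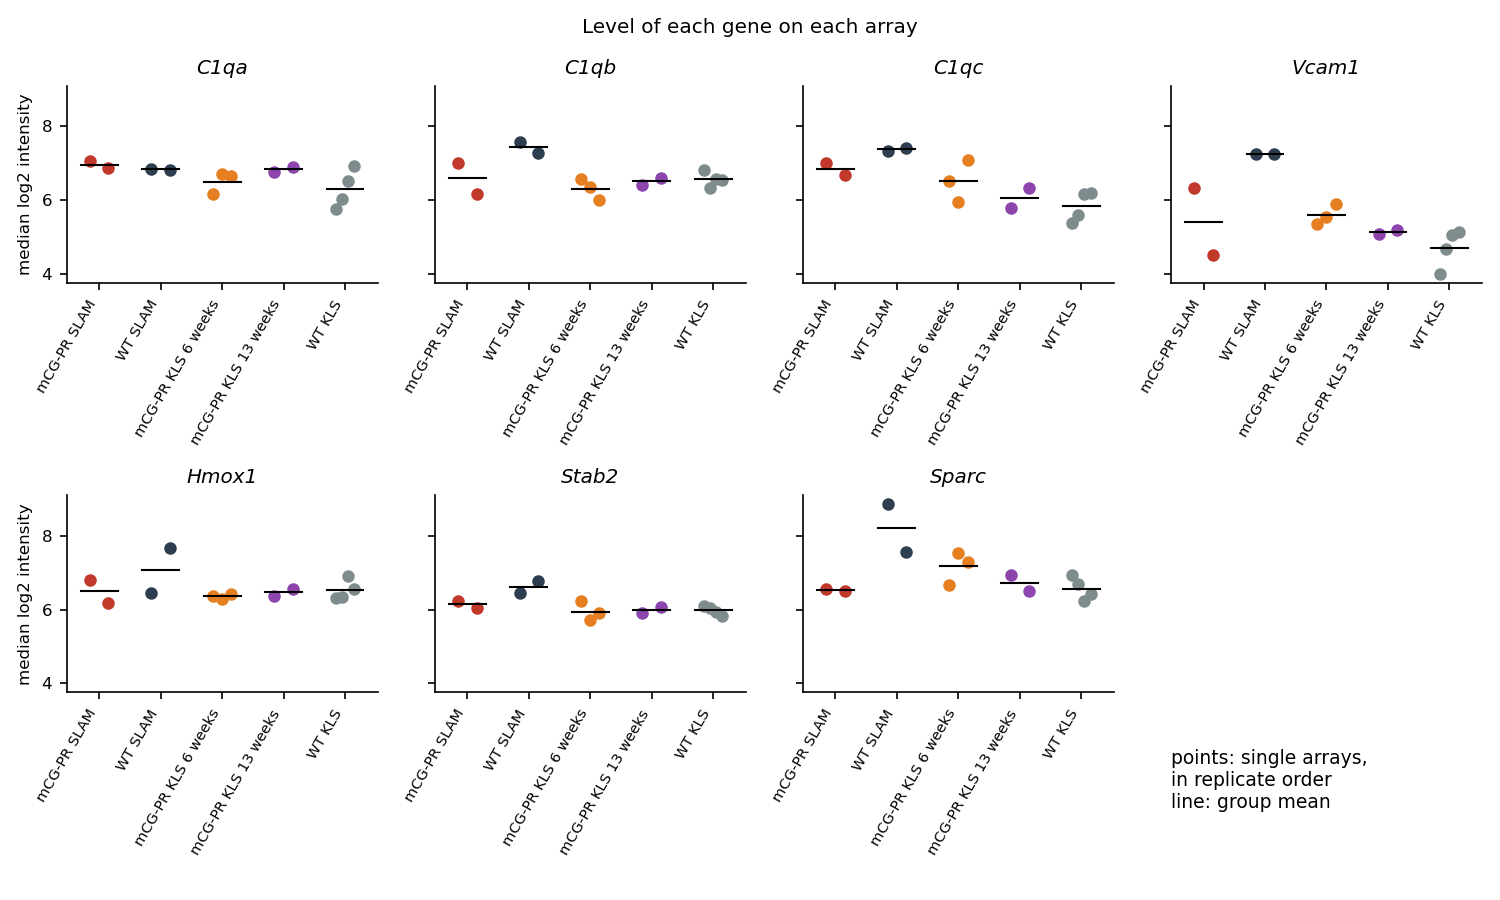
Level of each gene (median log2 intensity of its probe sets, vertical axis) on each of the 13 arrays, by group; points are single arrays in replicate order and lines are group means. Vcam1 and Sparc show the widest step between mCG-PR SLAM and WT SLAM, at -1.84 and -1.68, and C1qa shows none of that direction, at 0.13.

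The probe sets, which query separate stretches of each gene, gave a finer view of the same contrast. Both mCG-PR SLAM arrays lay below both WT SLAM arrays for 43 of the 123 probe sets, or 35.0%, against 16.6% of all probe sets with a single gene. The mean was more than 1 log2 unit lower for 35 probe sets, or 28.5%, against 10.5% of all. These probe sets were spread unevenly: no overlap in this direction was seen for 9 of 12 in Sparc, 10 of 17 in Vcam1, 3 of 9 in Hmox1, 19 of 72 in Stab2, 1 of 5 in C1qb, 1 of 5 in C1qc and 0 of 3 in C1qa. In the opposite direction 12 of the 123 had no overlap, 10 of them in Stab2, against 18.0% of all probe sets.

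In Sparc all 12 probe sets had a lower mean on the mCG-PR SLAM arrays. The brightest on WT SLAM arrays, probe set 4359586, was 6.22 and 6.31 on the mCG-PR SLAM arrays, against 12.23 and 8.0 on the WT SLAM arrays. Probe set 4523814 was 5.93 and 6.23 on the mCG-PR SLAM arrays, against 10.96 and 7.97 on the WT SLAM arrays. On these 2 probe sets both WT SLAM arrays thus lay above both mCG-PR SLAM arrays. On the mCG-PR KLS arrays they were 5.67 to 8.16 and 5.89 to 7.56, in the same order. WT SLAM replicate 2 thus lay within that range for 4359586 and above it for 4523814. Over the Sparc probe sets, WT SLAM replicate 1 exceeded replicate 2 by more than 1 unit for 9 of 12.

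The Vcam1 probe sets split the arrays of both genotypes. Replicate 1 exceeded replicate 2 of mCG-PR SLAM by more than 1 unit for 7 of 17 probe sets and by more than 3 for 5 of them, and replicate 2 exceeded replicate 1 for 2, against 15.3%, 1.78% and 14.9% of all probe sets. In WT SLAM, replicate 2 exceeded replicate 1 by more than 1 unit for 8 of 17 and replicate 1 exceeded replicate 2 for 0, against 16.1% and 12.9% of all probe sets. Probe set 5522606 was 8.28 and 4.07 on the mCG-PR SLAM arrays, against 9.78 and 8.88 on the WT SLAM arrays. Probe set 5339199 was 8.38 and 4.51 on the mCG-PR SLAM arrays, against 8.85 and 9.12 on the WT SLAM arrays. On these probe sets mCG-PR SLAM replicate 1 came close to the WT SLAM arrays and replicate 2 did not. Probe set 5031557 was 2.24 and 4.76 on the mCG-PR SLAM arrays, against 3.06 and 7.90 on the WT SLAM arrays, so here the WT arrays lay far apart.

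A similar split was seen in the brightest C1qc probe set, 5433121, which was 12.49 and 7.49 on the mCG-PR SLAM arrays, against 10.03 and 8.62 on the WT SLAM arrays. It was 5.78 to 7.63 on the mCG-PR KLS arrays and 6.73 to 8.31 on the WT KLS arrays. The median of 5 probe sets that gives the level of C1qc does not show this, and under the upper quartile of probe sets the C1qc difference between mCG-PR SLAM and WT SLAM was -0.26. For Stab2 the most negative probe set, 4899004, was 2.24 and 1.39 on the mCG-PR SLAM arrays, against 7.80 and 6.55 on the WT SLAM arrays, while the median over its 72 probe sets was -0.27.

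**Figure D2:**
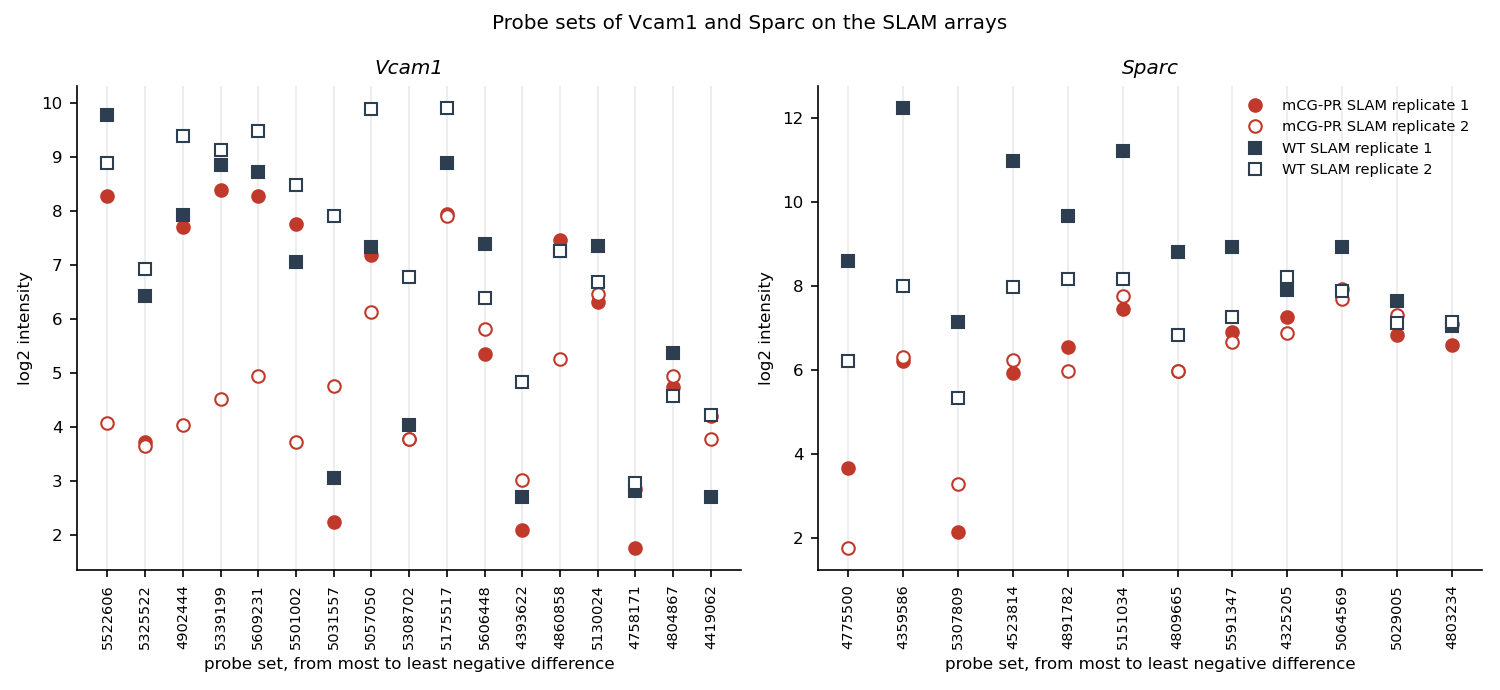
Log2 intensity (vertical axis) of each probe set of Vcam1 and Sparc on the 4 SLAM arrays, ordered by the difference between mCG-PR SLAM and WT SLAM. For Vcam1, mCG-PR SLAM replicate 1 (filled circles) lies more than 3 units above replicate 2 (open circles) in 5 probe sets and WT SLAM replicate 2 lies more than 1 unit above replicate 1 in 8; for Sparc, WT SLAM replicate 1 (filled squares) lies highest in most.

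In WT mice, SLAM cells were next set against KLS cells. The WT SLAM mice were 6 weeks old and the WT KLS mice 12 or 13 weeks, so age and sorted population cannot be told apart in this contrast. All 7 genes had a higher mean on the WT SLAM arrays, with a median difference of 0.86 against 0.03 over all genes. Both WT SLAM arrays lay above all 4 WT KLS arrays for 5 genes, C1qb, C1qc, Vcam1, Stab2 and Sparc, where 15.1% of all genes did so. The selection may have used this contrast too, so it was not tested either.

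Vcam1 was 7.25 and 7.26 on the WT SLAM arrays and 3.99, 4.68, 5.04 and 5.13 on the WT KLS arrays. Its difference of 2.54, or 5.82-fold, was the 4th largest of 15121 genes, and the groups were 2.11 apart at their nearest arrays. Sparc was 8.86 and 7.56 on the WT SLAM arrays and 6.24 to 6.93 on the WT KLS arrays, and its mean was higher by 1.64, or 2.29 without WT SLAM replicate 2 and 0.99 without replicate 1. C1qc was 7.34 and 7.41 on the WT SLAM arrays and 5.37, 5.59, 6.17 and 6.19 on the WT KLS arrays, higher by 1.54. The differences of the other genes were 0.86 for C1qb, 0.63 for Stab2, 0.54 for Hmox1 and 0.53 for C1qa, and the last 2 overlapped between groups.

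The same step between sorted populations was small in mCG-PR mice. The mCG-PR SLAM arrays differed from the mCG-PR KLS arrays of 6 weeks by a median of 0.20 over the 7 genes, against -0.05 over all genes. C1qa was higher by 0.46 without overlap, Sparc was lower by a difference of -0.64 without overlap, and the other 5 genes overlapped. The share of all genes without overlap was not counted for this contrast, so how common such gaps are is unknown. These mice were 7 and 6 weeks old, so the ages lay closer here than in WT mice. The difference between the 2 steps was not tested. The genes were chosen for high values on the WT SLAM arrays, which enter only the step in WT mice. That choice by itself favours a larger step there. Y-linked levels were low on both mCG-PR SLAM arrays, but only on replicate 3 of the mCG-PR KLS arrays of 6 weeks.

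Ordered by group mean, the WT SLAM group stood highest for 6 of the 7 genes. The genes were chosen for high values on the WT SLAM arrays, so this order is a description. For C1qb, C1qc, Vcam1, Stab2 and Sparc it was apart from the next group, and for Hmox1 it overlapped WT KLS, the next in order. For Sparc the nearest arrays were close, at 7.56 in WT SLAM and 7.54 in mCG-PR KLS of 6 weeks. The share of all genes with WT SLAM highest and apart was not counted. Below WT SLAM every neighbouring pair of groups overlapped for these 6 genes. For C1qa the order was mCG-PR SLAM, mCG-PR KLS of 13 weeks, WT SLAM, mCG-PR KLS of 6 weeks and WT KLS, and the only neighbours apart were WT SLAM and mCG-PR KLS of 6 weeks.

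The WT SLAM arrays did not carry these genes alike. Sparc was 1.30 higher on replicate 1 than on replicate 2, which 2.17% of genes exceeded, and Hmox1 was 1.22 higher on replicate 2. The medians of Vcam1, C1qa and C1qc lay within 0.08 of each other on these arrays, but single probe sets did not: 8 of 17 for Vcam1 and 3 of 5 for C1qc differed by more than 1 unit, and 0 of 3 for C1qa. C1qc probe set 5393643 was 3.88 and 7.01 on the WT SLAM arrays. Marker lists of cells that could be present in a marrow sort also differed between these arrays.

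Of 28 measured macrophage genes, 8 lay lower without overlap and 3 higher on the mCG-PR SLAM arrays than on the WT SLAM arrays, against 17.5% and 17.6% of all genes. On both WT SLAM arrays 6 of them, or 21.4%, lay above all WT KLS arrays, against 15.1% of all genes. Of the 28, 6 were more than 1 unit higher on WT SLAM replicate 2 and 2 on replicate 1, against 7.12% and 4.40% of all genes. Their summed intensity was 3434 and 3057 in mCG-PR SLAM, 3424 and 5773 in WT SLAM, and 3139 to 4261 on the KLS arrays. Cybb, the phagocyte oxidase subunit, was 5.13 and 5.96 on the mCG-PR SLAM arrays, against 5.69 and 9.16 on the WT SLAM arrays. Aif1, a macrophage actin-binding protein, was 5.71 and 6.93 on the mCG-PR SLAM arrays, against 7.16 and 8.54 on the WT SLAM arrays. Siglec1 and Cd14 had the largest differences in the other direction, at 0.39 and 0.50. The F4/80 gene Adgre1 was 5.69 and 5.43 in mCG-PR SLAM, 5.49 and 5.63 in WT SLAM, and 4.92 to 6.19 on the KLS arrays. Mrc1, the macrophage mannose receptor, was 5.60 and 4.82 in mCG-PR SLAM, 6.25 and 6.11 in WT SLAM, and 4.88 to 5.69 on the KLS arrays. WT SLAM thus lay within the KLS range for Adgre1 and above it for Mrc1. Lyz2, Adgre1 and Mrc1 were named here after their values were seen. No marker was at 0, since the deposited intensities hold no 0.

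Of 26 measured marrow stromal genes, 5 were more than 1 unit higher on WT SLAM replicate 1 and 0 on replicate 2, against 4.40% and 7.12% of all genes. Their summed intensity was 3312 and 3430 in mCG-PR SLAM, 3591 and 3879 in WT SLAM, and 3251 to 4073 on the KLS arrays. This sum is weighted to the gene of highest intensity, Angpt1, at 10.11 and 10.91 on the WT SLAM arrays. The mean log2 level of the list had the opposite order on these arrays, at 6.40 and 6.07. It was 5.90 and 6.01 in mCG-PR SLAM and 5.88 to 6.14 on the KLS arrays. Ibsp, the bone sialoprotein of osteoblasts, was 4.22 and 4.82 on the mCG-PR SLAM arrays, against 8.63 and 4.35 on the WT SLAM arrays. Adipoq, the adipokine of marrow adipocytes and their stromal precursors, was 4.10 and 5.56 on the mCG-PR SLAM arrays, against 7.48 and 5.36 on the WT SLAM arrays. Tagln and Runx2 had the largest positive differences, at 0.62 and 0.82. On the WT SLAM arrays 11 of the 26 stromal genes were higher on replicate 1 and 15 on replicate 2. The share higher on replicate 1 was 42.3%, against 42.7% of all genes. Runx2 was 7.65 and 8.61 on these arrays, the opposite order to Ibsp and Adipoq. Sparc was higher on the array where Ibsp and Adipoq were higher, and Hmox1 on the array where Cybb was higher. Cybb was 6.18 to 7.85 on the KLS arrays. The 2 macrophage genes more than 1 unit higher on replicate 1 went the other way. They were Cd68, at 8.43 and 6.84 on the WT SLAM arrays, and Lgmn, at 6.87 and 5.60. Some genes of other lineages also stood higher on WT SLAM replicate 2. More than 1 unit higher there were 4 of 13 erythroid genes, against 7.12% of all genes. Among them was the transferrin receptor gene Tfrc, at 6.10 and 8.58 on the WT SLAM arrays and 7.89 to 9.34 on the KLS arrays. Its value on replicate 2 thus lay within the KLS range, and replicate 1 lay below it. The same held for 3 of 8 genes expected to be low in such sorts, a list that also holds Cd48. These 3 were the B cell genes Ms4a1 and Cd79a and the natural killer gene Klrb1c. Ms4a1 was 3.95 and 6.32 and Klrb1c 3.61 and 6.11 on the WT SLAM arrays. In neither list was a gene more than 1 unit higher on replicate 1, where 4.40% of all genes were. Of 15 megakaryocyte and platelet genes, 0 were more than 1 unit higher on either WT SLAM array. Angpt1, Cd68, Lgmn, Tfrc, Ms4a1, Cd79a and Klrb1c were named after their values were seen.

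Of 25 measured sinusoidal and other endothelial genes, 7 lay lower without overlap and 7 higher on the mCG-PR SLAM arrays than on the WT SLAM arrays, against the same 17.5% and 17.6% of all genes. On both WT SLAM arrays 12 of them, or 48.0%, lay above all WT KLS arrays, against 15.1% of all genes. That share was 23.1% for stromal, 13.3% for megakaryocyte and platelet, and 7.69% for erythroid genes. The summed intensity of the endothelial genes was 2940 and 3272 in mCG-PR SLAM, 3276 and 3214 in WT SLAM, and 2596 to 3176 on the KLS arrays. Fabp4, a fatty acid binding protein of capillary endothelium and macrophages, was 5.22 and 5.15 on the mCG-PR SLAM arrays, against 7.25 and 7.01 on the WT SLAM arrays. Cd36, a scavenger receptor, was 4.18 and 4.36 on the mCG-PR SLAM arrays, against 5.79 and 5.71 on the WT SLAM arrays. Selp and Egfl7 were higher on the mCG-PR side by 0.51 and 0.52. Stab1, the paralogue of Stab2, was 6.36 and 6.40 on the mCG-PR SLAM arrays, against 6.45 and 6.58 on the WT SLAM arrays; it was named here after its values were seen. The part of macrophages, stroma, endothelium or the other lineages in the levels of the 7 genes was not tested.

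**Figure D3:**
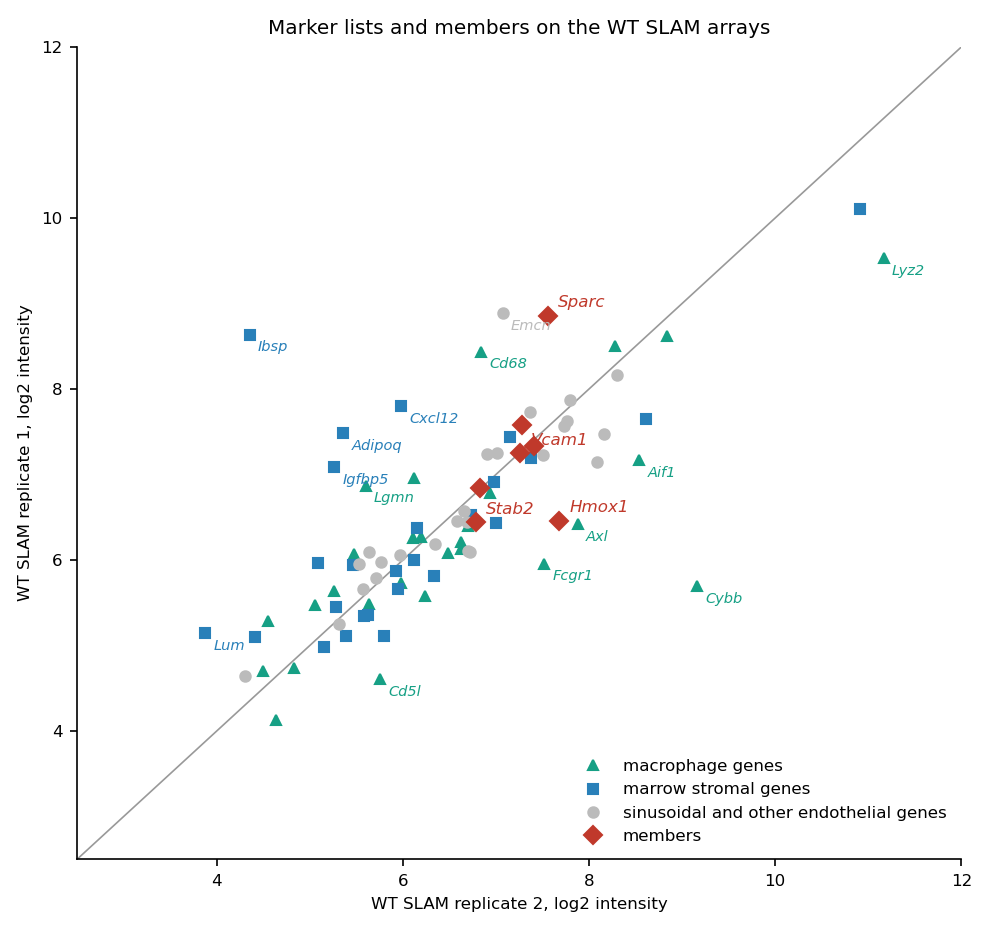
Log2 intensity of each gene of the macrophage, marrow stromal and endothelial lists and of the 7 genes (diamonds) on WT SLAM replicate 2 (horizontal) and replicate 1 (vertical); the line marks equal values and list genes more than 1 unit off it are named. Ibsp, Adipoq and Sparc lie above the line at 8.63, 7.48 and 8.86 on replicate 1, and Cybb and Hmox1 lie below it at 9.16 and 7.68 on replicate 2. The macrophage genes Cd68 and Lgmn lie above it, at 8.43 and 6.87 on replicate 1. Of the 26 stromal genes, 11 lie above the line and 15 below it.

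The other genes of each pathway were described in the same SLAM contrast, in lists that share some genes. Of 38 other complement genes, 26 had a lower mean on the mCG-PR SLAM arrays and 12 a higher one, with a median of -0.19. C1qbp, a mitochondrial protein that can bind C1q, differed by -0.79 and Clu, the complement inhibitor clusterin, by -0.73. Itgb2, the shared chain of the complement receptors of leukocytes, differed by 0.62. Cd93, a C-type lectin of stem cells and endothelium once described as a C1q receptor, was 8.52 and 8.59 on the mCG-PR SLAM arrays, against 7.40 and 7.30 on the WT SLAM arrays, a difference of 1.20.

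Of 18 integrin and adhesion genes paired with Vcam1, 11 were lower and 7 higher on the mCG-PR side, with a median of -0.04. Itgb1, the beta1 chain of the Vcam1 receptor, was 8.22 and 9.01 on the mCG-PR SLAM arrays, against 10.03 and 9.70 on the WT SLAM arrays, a difference of -1.25. Cxcl12, the stromal chemokine that retains stem cells in marrow, was 5.77 and 5.43 on the mCG-PR SLAM arrays, against 7.80 and 5.98 on the WT SLAM arrays. Vcam1 and Itgb1 were both lower without overlap, as were 17.5% of all genes, and Itgb1 was named for being among the most negative of its list. Their patterns differed: WT SLAM minus WT KLS was 0.01 for Itgb1 and 2.54 for Vcam1. Cxcl12 was high on WT SLAM replicate 1 mainly.

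Of 31 haem, iron and antioxidant genes, 19 were lower and 12 higher, with a median of -0.14. Prdx1, a peroxidase induced with Hmox1 by oxidative stress, differed by -1.07 and Alas1, the first enzyme of haem synthesis, by -1.06. Gclc, which makes the glutathione precursor, differed by 0.87 and Hp, haptoglobin, by 0.69. Of 21 scavenger receptor genes, 11 were lower and 10 higher, with a median of -0.02. Olr1 differed by -1.42 and was 7.80 on WT SLAM replicate 2 against 5.31 on replicate 1, while Cxcl16 and Scarb2 differed by 1.12 and 0.69.

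Of 40 matrix genes other than Sparc, 27 were higher and 13 lower on the mCG-PR SLAM arrays, with a median of 0.07. Fn1, fibronectin, differed by -0.85 and Lum, lumican, by -0.50. Lama4 and Spock2 differed by 0.35 and 0.40. Of 15 megakaryocyte and platelet genes, 10 were lower and 5 higher (median -0.11), with Pf4 at -1.06, Gp9 at -0.63, Selp at 0.51 and Itgb3 at 0.84. Of 13 erythroid genes, 9 were lower and 4 higher (median -0.15), with Rhag at -1.76, Klf1 at -0.68, Gata1 at 0.19 and Icam4 at 0.52. Over all genes 50.3% were lower.

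The KLS arrays gave the comparison that permits a test, since the mCG-PR KLS arrays took no part in the selection. The WT KLS arrays may have taken part as the low side, so positive differences are not free of the selection. None of the 6 genes above the filter on low values passed the test between any KLS groups (limma, two-sided, adjusted p of at least 0.698, Benjamini-Hochberg over 10584 genes). With so few arrays this does not show that their levels were unchanged. Vcam1 lay below the filter, a mean log2 intensity of 6.00 over all arrays, and was tested only without it. At an unadjusted p under 0.05 there was 1 gene of the 6 at 6 weeks, C1qc, and 0 at 13 weeks, over both ages and between the ages. Over all tested genes the same test called 0.0% for both ages together, 0.00945% for 6 weeks, 0.0% for 13 weeks and 0.0% for 13 against 6 weeks. At an unadjusted p under 0.05 there were 760, 704, 782 and 669 genes in these comparisons.

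At 6 weeks C1qc was 6.51, 5.94 and 7.08 on the mCG-PR KLS arrays, against 5.37, 5.59, 6.17 and 6.19 on the WT KLS arrays. The difference was 0.68 ± 0.27 (SE, limma, n = 3 and 4, adjusted p = 0.707), the groups overlapped, and 2 of 3 mCG-PR arrays lay above all WT arrays. Without mCG-PR KLS of 6 weeks replicate 3, the array with low Y-linked levels, it was 0.40, and under the mean of probe sets it was 0.29. Sparc was 6.67, 7.54 and 7.30 on the mCG-PR KLS arrays, against 6.93, 6.69, 6.24 and 6.41 on the WT KLS arrays. Its difference was 0.60 ± 0.29 (SE, limma, n = 3 and 4, adjusted p = 0.759).

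Vcam1 at 6 weeks was 5.36, 5.53 and 5.89 on the mCG-PR KLS arrays, against 3.99, 4.68, 5.04 and 5.13 on the WT KLS arrays. All mCG-PR arrays lay above all WT arrays, for 1 of the 7 genes, where 7.94% of all genes did so. The difference was 0.88 ± 0.36 (SE, limma without the filter, n = 3 and 4, adjusted p = 0.767). Of the 17 Vcam1 probe sets, 4 had all mCG-PR arrays of 6 weeks above all WT KLS arrays, against 6.21% of all probe sets, and 0 had them below. The median of all tested genes was itself higher by 0.11 at 6 weeks, and quantile normalisation brought that shift to 0.

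The other differences at 6 weeks were 0.20 for C1qa, -0.03 for Stab2, -0.17 for Hmox1 and -0.26 for C1qb. At 13 weeks C1qa was 6.76 and 6.91 on the mCG-PR KLS arrays, against 5.75, 6.04, 6.52 and 6.92 on the WT KLS arrays, a difference of 0.53 ± 0.28 (SE, limma, n = 2 and 4, adjusted p = 0.698). The mCG-PR arrays fell within the range of the WT arrays. Vcam1 was 5.07 and 5.19 on the mCG-PR KLS arrays of 13 weeks, a difference of 0.42 from WT KLS, and the remaining genes lay between -0.07 and 0.23. Over both ages the differences ran from -0.18 for C1qb to 0.70 for Vcam1.

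Between the mCG-PR KLS ages, the 13 week arrays were lower than the 6 week arrays for Vcam1, C1qc and Sparc (-0.46, -0.46 and -0.45) and higher for C1qa, C1qb, Hmox1 and Stab2 (0.33, 0.20, 0.11 and 0.04). No adjusted p was below 0.863. In the marker and pathway lists, 0 genes passed the limma test in any KLS comparison, in either direction.

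**Figure D4:**
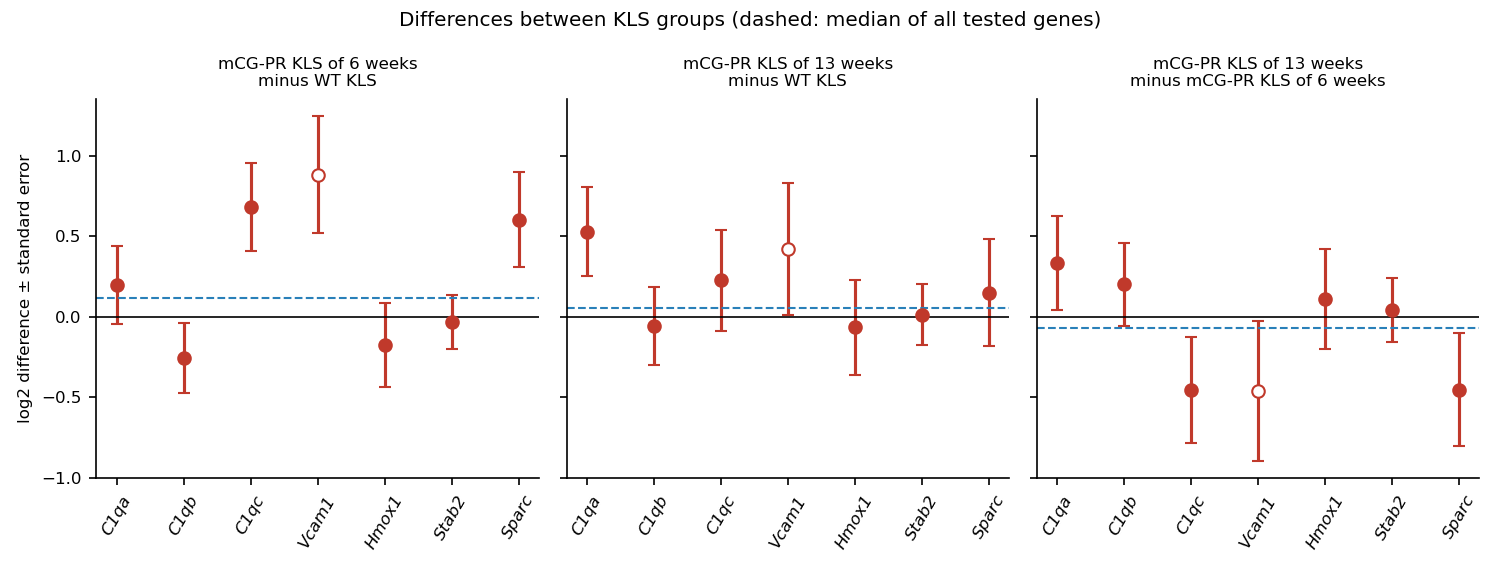
Log2 difference with limma's standard error (vertical axis) of each gene in 3 comparisons of KLS groups; Vcam1 (open symbols) takes its error from the fit without the filter, and the dashed line is the median of all tested genes. Vcam1, C1qc and Sparc lie highest at 6 weeks, at 0.88, 0.68 and 0.60, and none passed the test.

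How far the genes moved together was described by Pearson correlation over the arrays, which share the 5 groups and, within a group, their sorted population. Over all 13 arrays the correlation was 0.84 for C1qc with Vcam1 and 0.78 for C1qb with Stab2, but 0.17 for C1qa with C1qb and 0.07 for Hmox1 with Sparc. Over the 9 KLS arrays C1qc with Vcam1 was 0.85, while C1qb with Vcam1 was -0.73 and C1qb with C1qc -0.57. Of the C1q chains, only C1qa with C1qc was positive there, at 0.47.

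The genes whose levels over the 13 arrays were most like each gene, among 10578 other tested genes, were named by this correlation. For the mean of the C1q chains they were Tnfrsf25 (0.91), Sod1, Efemp2, Whrn, Gimap3, Efnb2, Prdx5, Clec7a, Mylk and Tmem132e (0.84). Clec7a, the beta-glucan receptor dectin-1 of macrophages, was 7.03 and 8.30 on the WT SLAM arrays and 5.53 to 6.35 on the KLS arrays. For Vcam1 they were Gimap3 (0.94), Napa (0.92) and Fam53b (0.89), and for Stab2 Rras (0.89), Btbd6 (0.86) and Mpg (0.86). For Hmox1 they were Zfp358 (0.93), Retsat (0.90) and Fuz (0.90). Zfp358 was 6.41 and 8.01 and Retsat 6.77 and 8.42 on the WT SLAM arrays, so both shared the high value on replicate 2. For Sparc they were Gpx3 (0.91), Cxcl12 (0.89) and Mkrn1 (0.88), and Gpx3, a secreted peroxidase, was 7.61 and 6.31 on the WT SLAM arrays and 5.74 to 6.26 on the KLS arrays.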

How the data were processed

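RNA of sorted cells from 13 mice was amplified from 20 ng and hybridised to Affymetrix Mouse Exon 1.0 ST arrays, per the labels' protocols. The deposited table holds 1 linear intensity per probe set and array (2.34 to 21748, 229581 probe sets), which the authors made with RMA and build mm9, per the submitters' processing notes; its settings were not given in the labels. Here log2 was taken, with no further scaling. GEO's platform annotation listed 1 gene for 208397 probe sets (used here), several for 3965 and none for 17219. Genes had the median of at least 3 probe sets. The 10584 genes above the 30th percentile of the mean (log2 6.00) entered limma (version 3.58.1, R 4.3.3) with all arrays, tested on simulated data, with Benjamini-Hochberg adjustment at 0.05. The members and lists were chosen with earlier results of these data known. Named genes were all members, the 10 or 3 most correlated genes, and per list the 2 most negative and 2 most positive in SLAM cells; others are marked. Same-numbered replicates did not deviate together (correlations -0.04 to 0.08), and the main fit used no pairing. Differently numbered replicates were not set beside them, so whether the numbers pair arrays is not settled. Alternatives were the mean of probe sets, no filter or the 50th percentile, quantile normalisation, array medians subtracted, a replicate block, the compared groups alone, array weights, WT KLS of 1 age, and leaving out each array; the upper quartile of probe sets was added after seeing the data. The number of arrays limits the precision. Sequences came from RefSeq tables of GRCm38.p6, where 4 of the 7 promoters were found.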

Additional observations from a re-analysis of the deposited data

Results flagged for a closer look

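The Vcam1 differences between genotypes had opposite signs in the 2 sorted populations, but the one in KLS cells did not pass the test. Both mCG-PR SLAM arrays lay below both WT SLAM arrays (difference -1.84), while all mCG-PR KLS arrays of 6 weeks lay above all WT KLS arrays (difference 0.88, limma without the filter, adjusted p = 0.767), as did 7.94% of all genes. Vcam1 lay below the filter on low values, and the WT KLS arrays may have been the low side of its selection. The genotype difference in SLAM cells minus that in KLS cells of 6 weeks was -2.72, and it was not tested, because the SLAM contrast took part in choosing the gene. Age differed between genotypes in both populations, and the Y-linked genes were low on both mCG-PR SLAM arrays and on 1 of the 3 mCG-PR KLS arrays of 6 weeks; the part of either in this result was not tested.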

How the results depend on the processing

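With 2 arrays a group, leaving out 1 array changed how low the genes stood in SLAM cells: the median difference between mCG-PR SLAM and WT SLAM was -0.90 to -0.37, against -0.58 with all arrays, and -0.61 to -0.39 under the other settings. The median difference between WT SLAM and WT KLS was 0.79 to 1.01 with 1 array left out, 0.65 under the mean of probe sets and 0.86 with all. In the SLAM contrast 4 or 5 genes had no overlap under each scaling and probe set summary run. In the KLS comparisons 0 of the 7 genes passed limma under any alternative run, with adjusted p from 0.315 to 1. This held with the replicate block too, although same-numbered replicates did not deviate together. Small differences turned sign. Against the WT KLS arrays of 12 weeks alone, C1qa was -0.081 over both ages and -0.21 at 6 weeks, Stab2 0.075 and 0.058, and C1qc -0.12 at 13 weeks. Against those of 13 weeks alone, Hmox1 was 0.071 over both ages, 0.028 at 6 weeks and 0.14 at 13 weeks, and at 13 weeks Stab2 was -0.078 and Sparc -0.092. Under the mean of probe sets, Hmox1 was 0.16, 0.15 and 0.19 over both ages, at 6 and at 13 weeks, Stab2 0.067 and 0.040 over both ages and at 6 weeks, C1qb 0.019 over both ages and 0.12 at 13 weeks, and C1qc -0.067 at 13 weeks. Under the upper quartile, Hmox1 was 0.13, 0.031 and 0.28, Stab2 0.11 and 0.10, C1qc -0.19 at 13 weeks, and Vcam1 0.15 for 13 against 6 weeks. At 13 weeks the replicate block gave 0.058 for Hmox1 and -0.069 for Stab2, and Stab2 was -0.11 under quantile normalisation and -0.067 with array medians subtracted. Stab2 was 0.050 over both ages with array weights, and -0.030 for 13 against 6 weeks under quantile normalisation. With 1 array left out, Stab2 ran from -0.083 to 0.051 over both ages, -0.18 to 0.091 at 6 weeks, -0.078 to 0.099 at 13 weeks and -0.080 to 0.19 for 13 against 6 weeks. At 13 weeks such ranges were -0.15 to 0.041 for C1qb, -0.046 to 0.50 for C1qc, -0.15 to 0.058 for Hmox1 and -0.070 to 0.37 for Sparc. The cause of these turns was not tested. Of 700 values under the alternatives, 631 kept their direction and side of the threshold or moved by less than the spread between replicates. The intensities carry no detection call, so how far a low level stands above background is unknown.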
